A study of Mus musculus with 7 samples.

Results

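The transcripts of 32 genes that encode lysosomal hydrolases, their activators and lysosomal membrane proteins were examined in mouse liver. They were chosen by name from a table of 54532 genes, and all 32 were found, were above 0 in every library and passed the filter on low values. They comprise 11 proteases, 10 glycosidases, 3 genes grouped as sulfatases and the sialate esterase, 5 lipid enzymes and activators, and 3 membrane proteins. The study sequenced RNA from livers of old C57BL/6 mice in 7 libraries. In 3 libraries the animals received a standard diet following supplementation with MDL-800, a small-molecule activator of the NAD-dependent deacetylase SIRT6, and in 4 control libraries the animals received a standard diet. The labels used here give no dose, duration, exact age or sex. They do not state that the libraries are separate animals, and p-values therefore describe the variation among libraries, which may in part be technical. Reads of Y-linked genes, given below, differ within each group, so the libraries of a group are not all from the same animal. The question here is whether lysosomal transcripts differed with the MDL-800 diet.

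Lysosomes are acidic organelles that break down proteins, glycans, lipids and nucleic acids delivered by endocytosis, phagocytosis and autophagy. Most soluble hydrolases are glycoproteins that are tagged with mannose 6-phosphate in the Golgi and carried to the lysosome by receptors, whereas membrane proteins such as LAMP1 and LAMP2 are sorted by signals in their cytosolic tails. Many of the genes share a promoter element built around an E-box, to which TFEB and TFE3 bind. In liver, hepatocytes and the resident macrophages (Kupffer cells) both hold abundant lysosomes.

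Recovered reads numbered 17600066 to 19920469 per library. Hepatocyte markers, which check the labelled tissue, summed to 57310 to 86760 FPKM, and none of the 8 was at 0. FPKM values are fragments per kilobase of gene, scaled by a denominator that the authors set for each library, so levels of different genes can be compared per length. Reads of 4 Y-linked genes (Uty, Ddx3y, Eif2s3y and Kdm5d) were present in control 1 (2173) and MDL-800 2 (3514) and were at 0 in the other 5 libraries. Control 3 also had 0 reads of the X-inactivation RNA Xist, against 15495 to 21104 in the other 4 without Y-linked reads. The first principal component, with 49.6% of the variance of all genes tested, set control 1 and MDL-800 2 apart from the rest. Results on treatment are therefore also given within the 5 libraries without Y-linked reads, in which MDL-800 1 and MDL-800 3 face control 2, control 3 and control 4.

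The levels of the 32 genes covered a wide range. On the FPKM scale, 7 genes had a mean of at least 100 over the 7 libraries (Ctsz, Psap, Lamp1, Ctsb, Ctsd, Ctsl and Ctss), 18 lay between 10 and 100, and 7 were below 10 (Siae, Arsa, Gusb, Glb1, Gla, Manba and Arsb). The proteases made up the largest summed level of the 5 classes in every library, from 45.7% of the summed FPKM of all members in MDL-800 2 to 56.9% in control 4. The summed FPKM of all members averaged 2013 in MDL-800 (SD 268, n = 3) and 1969 in control (SD 313, n = 4). The groups overlapped in that sum, and the lowest and the highest library were both controls, control 1 at 1694 and control 2 at 2410.

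Members also differed in how much they varied between libraries. Ctss spanned a 14.95-fold range, Arsa 7.95-fold, Lgmn 4.497-fold and Ctsc 3.98-fold, and the range of the remaining members was at most 2.53-fold. The narrowest range was that of Ctsh, which encodes the aminopeptidase cathepsin H, 1.21-fold, with FPKM between 82.6 and 100.2. Control 2 was the highest library for 12 of the 32 genes, and control 3 the lowest for 9. MDL-800 2 was the highest library for 6 genes and the lowest for another 6.

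**Figure D1:**
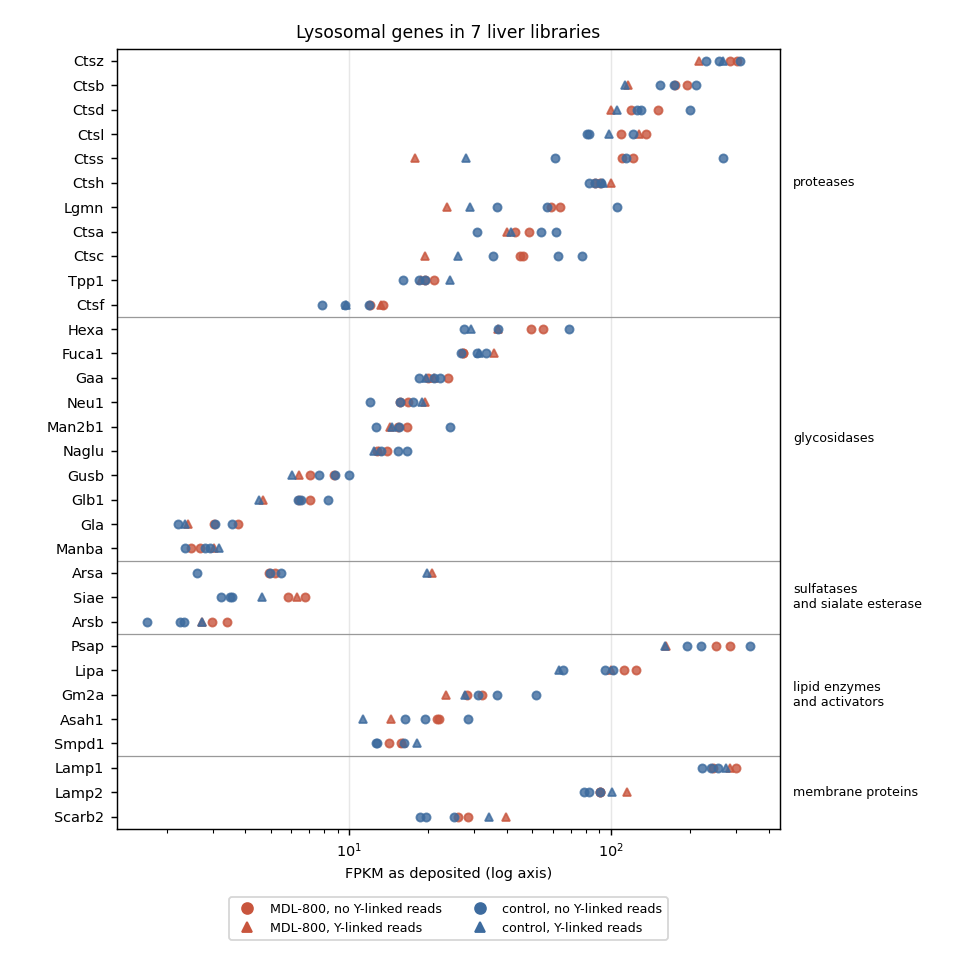
FPKM of each of the 32 genes (rows, log axis) in the 7 libraries. Red points are MDL-800 and blue points control, and triangles mark the 2 libraries with Y-linked reads. Ctss is spread from 17.9 to 267.1 FPKM, while Ctsh stays between 82.6 and 100.2.

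The promoters show the sequence element named above in a part of the family. RefSeq promoters of build GRCm38.p6, from 250 bases before to 50 bases after each start, were matched by symbol for 28 of the 32 genes (31 promoters), and Asah1, Ctsb, Ctsh and Siae had no entry. The E-box CACGTG, which reads the same on both strands, was present in 11 of the 31 promoters (35.5%), against 7.15% of all 32851 promoters of the same length. The longer TCACGTG, which contains the E-box and was searched on both strands, was present in 9 of 31 (29.0%), against 3.765% of all promoters. Members with the E-box were Arsa, Ctsa, Ctsd, Ctsf, Ctsl, Gaa, Gla, Glb1, Lamp1, Lgmn and Naglu. The stretches below lie upstream of the annotated gene and are shown because they hold these matches, which are in capitals, with up to 20 flanking bases.
Lamp1 (chr8:13159079-13159160, plus strand): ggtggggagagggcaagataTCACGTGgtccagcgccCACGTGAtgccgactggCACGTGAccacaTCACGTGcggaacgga
Gla (chrX:134601173-134601253, minus strand): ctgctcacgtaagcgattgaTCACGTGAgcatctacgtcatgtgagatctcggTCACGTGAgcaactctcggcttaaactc
Gaa (chr11:119267802-119267848, plus strand): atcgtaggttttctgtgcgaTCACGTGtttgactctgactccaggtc
Glb1 (chr9:114401009-114401055, plus strand): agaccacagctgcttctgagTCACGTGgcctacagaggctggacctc
Arsa (chr15:89477426-89477461, minus strand): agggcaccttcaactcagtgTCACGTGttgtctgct
Ctsf (chr19:4855066-4855111, plus strand): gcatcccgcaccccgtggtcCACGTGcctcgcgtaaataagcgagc
Lamp1 holds 4 E-boxes within the 82 bases before its start. Gla holds 2, in a stretch from 248 to 168 bases before its start. Ctsf holds only the shorter match. Ctsa, Ctsd, Ctsl, Lgmn and Naglu each have a match inside the span of the gene in the deposited table, and their stretches are not printed.

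Between MDL-800 and control livers, none of the 32 genes passed. Counts and p-values come from limma on log2(FPKM + 1), with Benjamini-Hochberg adjustment over all 11394 genes tested and a threshold of 0.05. Siae, Ctsf and Arsb had the smallest unadjusted p of the family. Over all genes tested, 0 passed as well (0%), and the smallest adjusted p of a member was 0.950. At an unadjusted p under 0.05 there were 3 of 32 members and 4.85% of all genes tested. All 3 were higher in MDL-800, a direction and threshold met by 3.23% of all genes tested. The groups did not overlap for 2 members, Siae and Ctsf, and for 6.45% of all genes tested. MDL-800 was the higher group in both, as in 4.03% of all genes tested. The log2 fold change was above 0 for 19 members and below 0 for 13, with a median of 0.05, and 54.2% of all genes tested were above 0, with a median of 0.02. The count of 3 went down to 1, Siae, when either MDL-800 1 or MDL-800 2 was left out. With limma voom on recovered reads, 0 members passed and 3 had an unadjusted p under 0.05 (Ctsf, Ctsl and Siae).

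**Figure D2:**
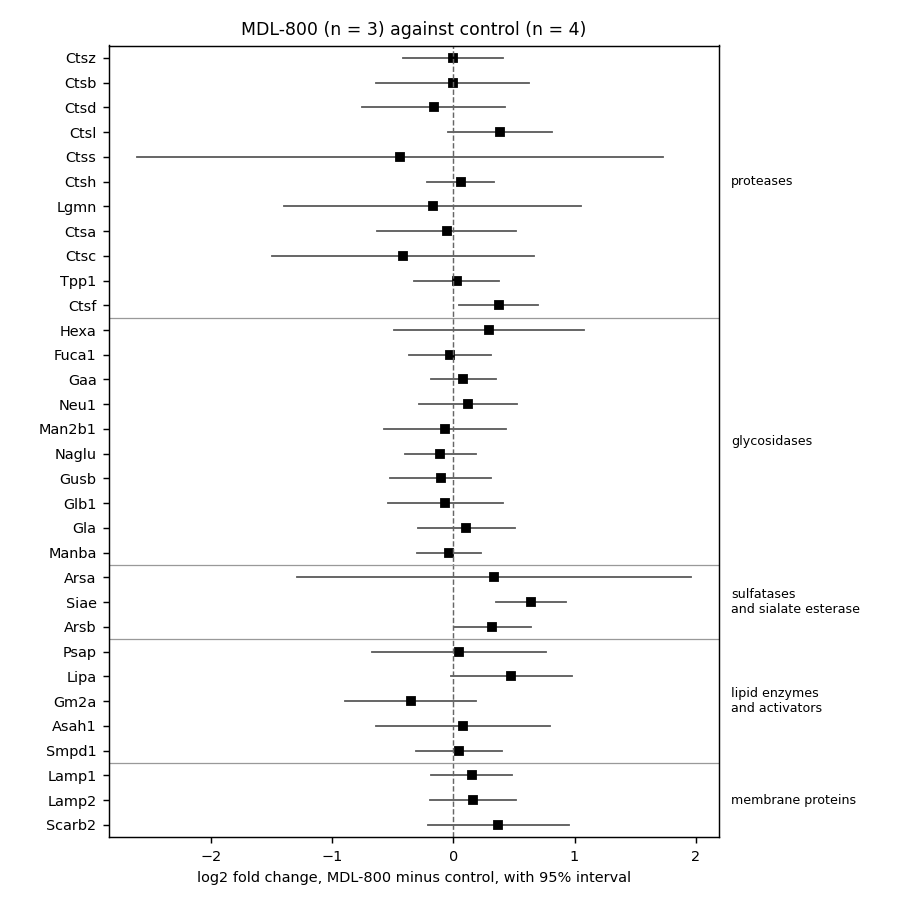
Log2 fold change of each of the 32 genes, MDL-800 (n = 3) minus control (n = 4), on the log2(FPKM + 1) scale. Squares are estimates and lines 95% intervals from limma, not adjusted for the number of genes. The intervals of Siae, Ctsf and Arsb lie above 0, and those of the other 29 genes include 0.

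Among the proteases, which degrade the protein content of the lysosome, 5 of 11 had a log2 fold change above 0 and 6 below, with a median of -0.004. Ctsz encodes the carboxypeptidase cathepsin Z and had the highest mean of the class. In MDL-800 1 to 3, Ctsz stood at 283.5, 216.1 and 303.3 FPKM, and in control 1 to 4 at 266.4, 230.5, 258.4 and 310.0 FPKM. The groups covered the same range, with a log2 fold change of 0.0002 and limits of -0.41 and 0.41 (95% interval). Ctsb, which encodes the cysteine protease cathepsin B, was at 175.5, 116.0 and 194.5 FPKM in MDL-800 and at 112.6, 210.7, 153.3 and 174.1 FPKM in control. Its lowest values were those of MDL-800 2 and control 1, with a log2 fold change of -0.004 (95% interval -0.64 to 0.63). Ctsb shares 774 of 6051 exon bases with Fdft1 on the opposite strand, and reads of such a pair cannot be told apart here because the library chemistry does not mark strand. In all, exons of 11 members overlap another gene.

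Ctsf and Ctsl had the smallest p of the proteases. Ctsf (chromosome 19, 4855129 to 4860912, GRCm38) encodes the cysteine protease cathepsin F and was at 13.4, 13.2 and 12.001 FPKM in MDL-800, against 9.74, 7.89, 11.8 and 9.65 FPKM in control. All 3 MDL-800 values lay above all 4 control values, although the lowest MDL-800 library and control 3 were close. The difference was 0.38 on the log2 scale with a standard error of 0.14 (limma unadjusted p = 0.0294, adjusted p = 0.950), and it was 0.36 within the libraries without Y-linked reads. Ctsl encodes the endopeptidase cathepsin L. It was at 109.0, 127.3 and 136.2 FPKM in MDL-800 and at 97.9, 82.6, 80.8 and 121.3 FPKM in control. Control 4 lay above MDL-800 1, so the groups overlapped, with a log2 fold change of 0.39 and a standard error of 0.18 (limma adjusted p = 0.950). Within the libraries without Y-linked reads the Ctsl value was 0.38.

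The proteases that varied most were Ctss, Lgmn and Ctsc, which were singled out after their values were seen. Ctss (chromosome 3, 95526786 to 95556403, GRCm38) encodes cathepsin S, a protease of antigen-presenting cells that processes the invariant chain of MHC class II. Its FPKM was 109.7, 17.9 and 120.7 in MDL-800 and 27.9, 267.1, 60.9 and 113.5 in control. MDL-800 2 and control 1 were lowest and control 2 highest, so the groups overlapped over nearly the whole range. The log2 fold change was -0.44 with a 95% interval from -2.61 to 1.73, and it was 0.43 without MDL-800 2, 0.10 without control 2, -0.97 without control 1 and -0.09 within the libraries without Y-linked reads. Lgmn encodes legumain, an asparaginyl endopeptidase that matures several cathepsins, and was at 58.9, 23.5 and 63.9 FPKM in MDL-800 and 28.9, 105.7, 36.8 and 56.8 FPKM in control. Ctsc encodes cathepsin C, a dipeptidyl peptidase that activates granule serine proteases, and was at 46.1, 19.5 and 44.7 FPKM against 26.0, 77.6, 62.6 and 35.4 FPKM. Both had their lowest value in MDL-800 2 and their highest in control 2. Of the other members of the class, Ctsd, the aspartic protease cathepsin D, had a log2 fold change of -0.16, Ctsa, the carboxypeptidase that also protects beta-galactosidase and neuraminidase, -0.06, Ctsh 0.06 and Tpp1, a tripeptidyl peptidase, 0.03.

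Among the glycosidases, which remove sugars from glycoproteins, glycolipids and glycosaminoglycans, 4 of 10 were above 0 and 6 below. Their log2 fold changes lay between -0.11 and 0.29, with a median of -0.03. Hexa, the alpha subunit of beta-hexosaminidase, was at 49.6, 36.9 and 54.8 FPKM in MDL-800 and at 29.0, 68.8, 27.4 and 37.0 FPKM in control. Control 2 was the highest library, above all MDL-800 values. The difference was 0.29 on the log2 scale with a standard error of 0.33, and it was 0.58 without control 2 and 0.14 without control 3. Fuca1, the alpha-fucosidase, was at 27.1, 35.8 and 27.2 FPKM in MDL-800 and at 31.3, 26.6, 33.2 and 30.7 FPKM in control, with a log2 fold change of -0.03. Naglu, which degrades heparan sulfate, was at 13.9, 13.0 and 12.8 FPKM against 12.4, 15.4, 13.2 and 16.5 FPKM, with a log2 fold change of -0.11. The remaining members were Gaa (acid alpha-glucosidase, which degrades glycogen), Gla (alpha-galactosidase A), Glb1 (beta-galactosidase), Gusb (beta-glucuronidase), Man2b1 and Manba (mannosidases) and Neu1 (a sialidase). Gaa, Neu1 and Manba had log2 fold changes of 0.08, 0.12 and -0.03, and the 95% interval of Gaa, from -0.19 to 0.35, was among the narrower ones. Gla, Glb1, Gusb and Man2b1 had 0.11, -0.07, -0.11 and -0.07.

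Siae, Arsb and Arsa all had a log2 fold change above 0, as did 54.2% of all genes tested. Without passing, 2 of the 3 had an unadjusted p under 0.05, against 4.85% of all genes tested. Arsb lost this under several alternatives, limma voom and median scaling among them. Siae (chromosome 9, 37555698 to 37649655, GRCm38) encodes an esterase that removes acetyl groups from sialic acids. In MDL-800 1 to 3, Siae stood at 5.83, 6.33 and 6.78 FPKM, and in control 1 to 4 at 4.62, 3.49, 3.56 and 3.22 FPKM. Every MDL-800 value lay above every control value, and control 1 was the nearest. Means were 6.32 ± 0.475 FPKM (SD, n = 3) and 3.72 ± 0.619 FPKM (SD, n = 4). The log2 fold change was 0.64 with a standard error of 0.12 (95% interval from 0.35 to 0.93). Siae ranked 10 of 11394 genes by p in limma (unadjusted p = 0.00117, adjusted p = 0.950), and its adjusted p over the alternatives ran from 0.256 without control 1 to 0.9999.

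The Siae difference was 0.72 on the log2 scale within the libraries without Y-linked reads, and the pair with Y-linked reads was at 6.33 FPKM in MDL-800 2 and 4.62 FPKM in control 1. It rests on a gene model of 10497 exon bases, of which 741 overlap Tbrg1 and 391 overlap Spa17, both on the opposite strand. Tbrg1 itself was at 11.9, 11.9 and 12.6 FPKM in MDL-800 and at 12.5, 9.28, 13.3 and 11.6 FPKM in control, with overlapping groups and a log2 fold change of 0.06. How many Siae reads fall in the shared bases was not tested.

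Arsb encodes the sulfatase that removes sulfate from dermatan and chondroitin sulfate. It was at 2.99, 2.74 and 3.40 FPKM in MDL-800 and at 2.74, 2.25, 2.34 and 1.69 FPKM in control. MDL-800 2 and control 1 had nearly the same value, and the other MDL-800 libraries lay above all controls. The log2 fold change was 0.32 with a standard error of 0.13 (limma unadjusted p = 0.0488, adjusted p = 0.950), and 0.45 within the libraries without Y-linked reads. Arsa (chromosome 15, 89472476 to 89477425, GRCm38) encodes arylsulfatase A, which degrades sulfatides, and was at 4.91, 20.8 and 5.202 FPKM in MDL-800 against 19.8, 4.97, 2.61 and 5.47 FPKM in control. One library of each group was high, and the other 5 values lay between 2.61 and 5.47 FPKM. The log2 fold change between treatment groups was 0.34 with a 95% interval from -1.29 to 1.96. It was -0.28 without MDL-800 2, 0.84 without control 1, -0.005 without control 3 and 0.22 within the libraries without Y-linked reads.

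**Figure D3:**
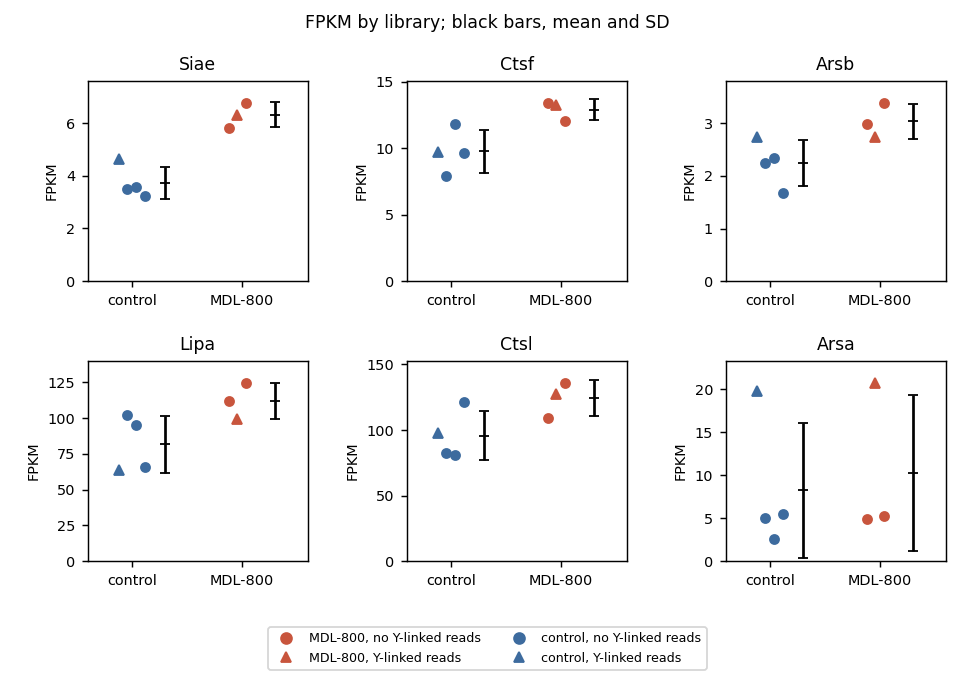
FPKM (axes from 0) of Siae, Ctsf, Arsb, Lipa, Ctsl and Arsa in each library, with the mean and SD of each group as black bars (MDL-800, n = 3; control, n = 4). Triangles mark the libraries with Y-linked reads. Siae runs from 5.83 to 6.78 in MDL-800 and from 3.22 to 4.62 in control, and Arsa is high in both triangles.

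Of the lipid enzymes and activators, 4 of 5 were above 0 (median log2 fold change 0.05), against 54.2% of all genes tested. Psap encodes prosaposin, the precursor of the saposins that present sphingolipids to hydrolases. It was at 252.6, 162.0 and 285.4 FPKM in MDL-800 and at 160.4, 339.0, 195.5 and 220.2 FPKM in control. MDL-800 2 and control 1 were lowest with nearly equal values, with a log2 fold change of 0.04 (95% interval -0.68 to 0.76). Lipa encodes lysosomal acid lipase, which hydrolyses cholesteryl esters and triglycerides. It was at 111.7, 99.5 and 124.8 FPKM in MDL-800 and at 63.4, 102.0, 95.1 and 65.5 FPKM in control. Control 2 lay above MDL-800 2, so the groups overlapped, and control 1 and control 4 were low. The difference was 0.48 on the log2 scale with a standard error of 0.21 (limma unadjusted p = 0.0586, adjusted p = 0.950), and it was 0.45 within the libraries without Y-linked reads.

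Gm2a encodes the GM2 activator, a cofactor of beta-hexosaminidase, and was the only one of the class below 0. It was at 28.2, 23.4 and 32.2 FPKM in MDL-800 and at 27.7, 36.6, 51.4 and 31.0 FPKM in control, with a log2 fold change of -0.35 and a standard error of 0.23. Control 3 held the highest value, and without it the difference was -0.18. Asah1, the acid ceramidase, and Smpd1, the acid sphingomyelinase, act one after the other on sphingomyelin and ceramide and had log2 fold changes of 0.08 and 0.05.

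All 3 membrane proteins had a log2 fold change above 0, from 0.15 to 0.37, and 54.2% of all genes tested were above 0. Lamp1, a heavily glycosylated protein of the limiting membrane, was at 244.6, 284.6 and 300.6 FPKM in MDL-800 and at 275.5, 240.2, 255.9 and 223.3 FPKM in control. The groups overlapped, with a log2 fold change of 0.15 (95% interval -0.18 to 0.49), which ran from 0.089 without MDL-800 3 to 0.24 without MDL-800 1. Lamp2, which also takes part in chaperone-mediated autophagy, was at 90.8, 114.8 and 91.0 FPKM against 100.3, 78.6, 90.8 and 82.1 FPKM, with a log2 fold change of 0.16, or 0.053 without MDL-800 2. Scarb2 encodes LIMP-2, which carries beta-glucocerebrosidase to the lysosome. It was at 26.0, 39.6 and 28.5 FPKM in MDL-800 and at 34.2, 19.5, 25.0 and 18.7 FPKM in control. MDL-800 2 and control 1 were the highest for Scarb2, and the log2 fold change was 0.37 with a standard error of 0.25. It was 0.19 without MDL-800 2 and 0.54 without control 1, where its unadjusted p was under 0.05.

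The members were then compared between the 2 libraries with Y-linked reads, 1 of each treatment, and the other 5. These sets are not groups of the study, and their difference was fitted in limma as a term beside treatment. Arsa was higher in both libraries with Y-linked reads and was the 1 member of 32 that passed, against 2.42% of all genes tested. Genes that passed with higher values made up 1.33% of all genes tested and those with lower values, which included no member, 1.10%. Its mean was 20.3 FPKM in the libraries with Y-linked reads and 4.63 FPKM in the other 5, a log2 difference of 1.93 with a standard error of 0.23 (adjusted p = 0.0169, rank 80 of 11394). The call was lost when MDL-800 1 (adjusted p = 0.0676) or MDL-800 3 (adjusted p = 0.0600) was left out, and the log2 difference over the alternatives ran from 1.73 to 2.13. Without control 3, Ctss and Scarb2 passed as well, and without control 4, Ctsc did.

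With no adjustment, 11 of 32 members had a p under 0.05, against 22.7% of all genes tested. Of these, 8 were lower with Y-linked reads (Ctsb, Ctsc, Ctss, Lgmn, Glb1, Gusb, Asah1 and Psap), against 8.85% of all genes tested. The other 3 were higher (Arsa, Lamp2 and Scarb2), against 13.8%. Values did not overlap between the 2 libraries and the other 5 for 16 of 32 members, against 32.8% of all genes tested. These values are FPKM as deposited. The ratio of recovered reads to the authors' denominator was highest in the same 2 libraries, 1.28 in MDL-800 2 and 1.25 in control 1. It was 0.995 to 1.24 in the other 5, which lowers their FPKM relative to the 2. Overlap after division by this ratio was not tested. Ctss had the largest difference, with means of 22.9 and 134.4 FPKM and a log2 difference of -2.35 (standard error 0.52, limma adjusted p = 0.0798). Lgmn and Ctsc had log2 differences of -1.19 and -1.12, Asah1 -0.71, Psap and Ctsb -0.66 each, and Glb1 -0.49. Scarb2 had 0.61 (limma adjusted p = 0.0892) and Lamp2 0.29.

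**Figure D4:**
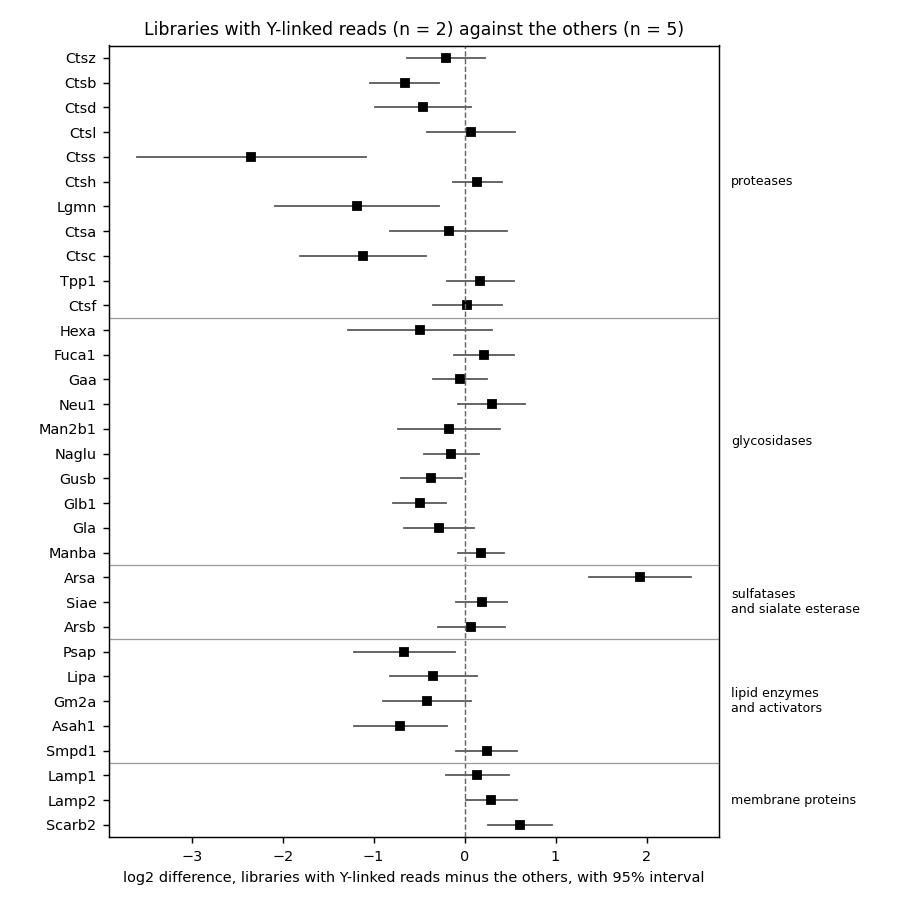
Log2 difference of each of the 32 genes between the 2 libraries with Y-linked reads and the other 5, from the limma fit with a treatment term. Squares are estimates and lines 95% intervals, not adjusted for the number of genes. Arsa, at 1.93, and Ctss, at -2.35, lie farthest from 0.

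Markers of Kupffer cells and macrophages differed between the same libraries. All 13 markers were found and none was at 0 in any library, and 1 of them, Cd68, is itself a lysosomal membrane protein counted among the other membrane proteins below. Their summed FPKM was 299.7 to 1151 in MDL-800 and 334 to 2783 in control. MDL-800 2 and control 1 were lowest, at 299.7 and 333.8, the next was control 3 at 669.2, and control 2 was highest. Clec4f, a lectin of Kupffer cells, was at 27.8 and 39.5 FPKM in MDL-800 2 and control 1 and at 66.7 to 220.2 FPKM elsewhere. Marco, Cd163 and Timd4 did not follow this order. Marco was highest in MDL-800 2 at 31.5 FPKM, Cd163 in control 1 at 2.70 FPKM and Timd4 in control 4 at 9.18 FPKM. In whole tissue, fewer cells of a type and less RNA per cell cannot be told apart.

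Ctss stayed in a narrow proportion to these markers: its FPKM was 5.96% to 12.1% of the marker sum, a 2.02-fold range, while its own level spanned 14.95-fold. For Lgmn the proportion spanned 2.28-fold and the level 4.497-fold. For Ctsc they were closer, at 3.36-fold and 3.98-fold. For Psap the proportion spanned 4.44-fold, more than its level at 2.11-fold. For Lamp1, whose level spanned 1.35-fold, the proportion spanned 11.01-fold, and for Ctsz 9.64-fold. A level that varies little gives a wide proportion, because the marker sum itself ran from 299.7 to 2783 FPKM. Arsa was highest in the 2 libraries with the lowest marker sums. The part of the macrophage markers in the differences of Ctss, Lgmn, Ctsc, Psap and the other genes was not tested, and in these 7 libraries low marker sums and Y-linked reads cannot be told apart. Control 2, the highest library for 12 members, also had the highest summed neutrophil markers (341.2 FPKM, against 12.6 to 93.4 elsewhere). Its summed dendritic cell markers (13.0 against 1.35 to 5.13) and red cell transcripts (807.4 against 126.1 to 198.4) were the highest as well. Of its dendritic cell sum, Itgax made up 9.353 FPKM. Xcr1 was also highest in control 2, but Flt3 was highest in MDL-800 1, and Clec9a and Siglech in MDL-800 3. Of the red cell list, the haemoglobin transcripts were highest in control 2. Alas2 was instead highest in MDL-800 2 (50.13 FPKM), followed by control 1 (47.2 FPKM). The part of these markers was not tested either.

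**Figure D5:**
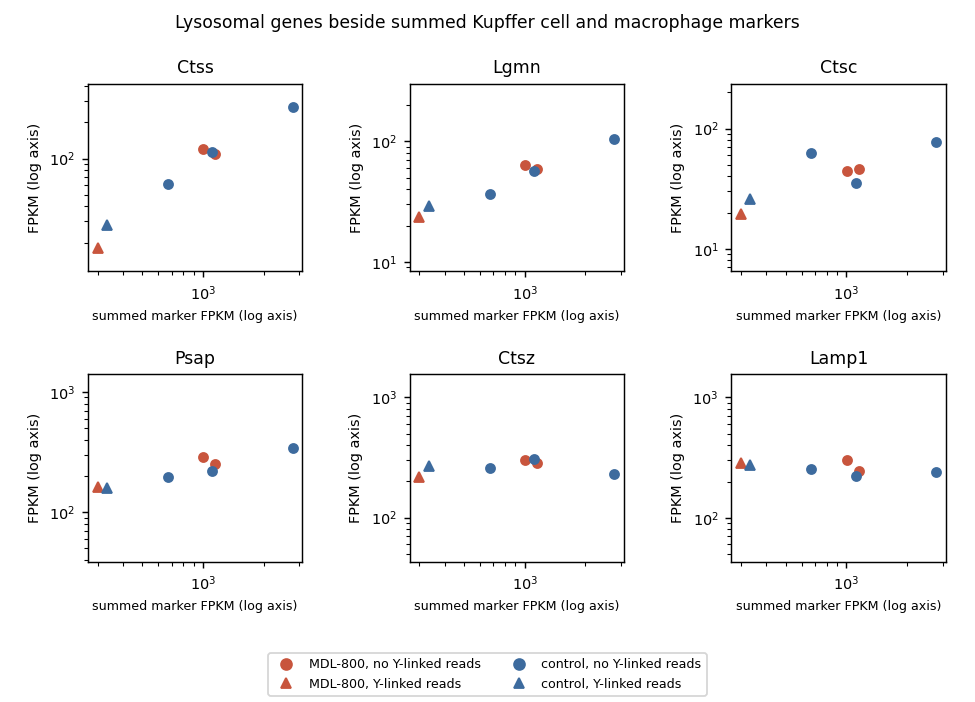
FPKM of Ctss, Lgmn, Ctsc, Psap, Ctsz and Lamp1 (vertical log axes, each covering the same fold range) against the summed FPKM of 13 Kupffer cell and macrophage markers (horizontal log axes) in the 7 libraries. Ctss lies at 17.9 FPKM where the marker sum is 299.7 and at 267.1 FPKM where it is 2783, whereas Lamp1 stays between 223.3 and 300.6 FPKM.

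Other genes of the lysosomal pathway were taken as lists, and none of their members passed between MDL-800 and control. Their counts above 0 stand beside 54.2% of all genes tested. Of 30 other lysosomal enzymes tested, 16 were above 0 and 14 below (median log2 fold change 0.007). The smallest p belonged to Pcyox1 and Aga, the aspartylglucosaminidase, with log2 fold changes of 0.27 and 0.18. Of 19 other membrane proteins, 13 were above 0, with a median of 0.14. Laptm4b, a small lysosomal transmembrane protein, averaged 18.0 FPKM in MDL-800 (SD 1.83, n = 3) and 13.5 FPKM in control (SD 2.31, n = 4). Abca2, a lipid transporter, averaged 5.39 (SD 0.795) and 8.61 FPKM (SD 3.22). The groups overlapped for both Laptm4b and Abca2. Of 17 subunits of the V-ATPase, the proton pump that acidifies the lysosome, 12 were above 0, with a median of 0.08. Its catalytic subunit Atp6v1a averaged 11.6 FPKM in MDL-800 (SD 0.852) and 8.83 FPKM in control (SD 0.940), and Atp6v0a1, a membrane subunit, averaged 6.13 (SD 0.138) and 7.497 FPKM (SD 0.731). The groups did not overlap for these subunits, 1 higher and 1 lower in MDL-800 of the 17, against 6.45% of all genes tested. Both were named for having the smallest p of the list, which favours groups that do not overlap.

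The tagging and sorting list, mostly of genes that deliver hydrolases to the lysosome, had 16 of 22 members above 0 and a median log2 fold change of 0.09. It also holds the sulfatase modifying factors Sumf1 and Sumf2. Vps35 and Vps29, subunits of the retromer that recycles sorting receptors, had log2 fold changes of 0.46 (standard error 0.14) and 0.22 (standard error 0.09). Their groups did not overlap, as was the case for 5 of the 22 genes, 4 higher and 1 lower in MDL-800, against 6.45% of all genes tested. Sumf1 was among the 4 higher. The lower one, named after its values were seen, was Gga3, an adaptor for sorting receptors, at -0.32 (limma adjusted p = 0.950). The regulators had 13 of 18 above 0 and a median of 0.07. Fnip2, a partner of folliculin, averaged 5.98 FPKM in MDL-800 (SD 1.59) and 3.56 FPKM in control (SD 1.05). Its groups overlapped, with control 1 at 5.08 FPKM and MDL-800 1 at 4.32 FPKM. Between libraries with and without Y-linked reads, Fnip2 had a log2 difference of 0.53 (limma adjusted p = 0.117). Rragc, a GTPase that recruits mTORC1 to the lysosome, averaged 15.7 (SD 0.280) and 13.0 FPKM (SD 1.13), and its groups did not overlap. Tfeb and Tfe3, named for their role and outside the naming rule, had log2 fold changes of -0.14 and -0.25 (limma adjusted p = 0.950 for both). The 3 MDL-800 values of Tfe3 lay below the 4 control values. Of the 18 regulators, groups did not overlap for 1 higher and 1 lower in MDL-800, against 6.45% of all genes tested. Of the cysteine protease inhibitors, 2 were tested: Cstb, the cytosolic cystatin B, had 0.33 and Cst3, the secreted cystatin C, -0.14.

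Across the libraries with and without Y-linked reads, Npc1, the cholesterol exporter of the lysosomal membrane, passed among the genes of these lists reported here. It was at 19.3 and 15.9 FPKM in MDL-800 2 and control 1 and at 6.89 to 13.3 FPKM elsewhere, a log2 difference of 0.90 (limma adjusted p = 0.0417). The lists hold 30, 19, 17, 22, 18 and 2 tested genes, and 2.42% of all genes tested passed this term. Whether the Npc1 call holds under the alternatives is not given here. The member Hexa had a log2 difference of -0.49 with a 95% interval from -1.28 to 0.30.

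Fold changes of members with and without the E-box covered overlapping ranges. The 11 members with it had a median log2 fold change of 0.08 between MDL-800 and control (from -0.17 to 0.39), and the 17 without it a median of 0.03 (from -0.44 to 0.48). The medians of the difference between libraries with and without Y-linked reads were -0.15 and -0.17.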

How the data were processed

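The deposited table gives FPKM per gene, computed by the authors, with gene lengths and coordinates of GRCm38. The submitters' processing notes list Cufflinks 2.2.1, TopHat2 2.0.14, Bowtie2 2.1.0 and build mm9, and the sources used here do not give the counting tool. Per the labels' protocols, cDNA was amplified with a SMARTer low-input kit, which does not mark strand. For 30 of 32 members the gene length equalled the union of GENCODE M21 exons, so unused exons lower the FPKM.

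Whole reads were recovered from FPKM and length (100% of values above 0 lay within 0.01 of an integer). They were used for depth, for limma voom and for the Y-linked term.

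Groups were compared with limma 3.58.1 under R 4.3.3 (trend, two-sided, Benjamini-Hochberg) on log2(FPKM + 1), without rescaling, over genes averaging at least 1 FPKM. This scale understates fold changes of low genes. The procedure was tested on simulated data, and the share of small changes that it detects is not given here. Alternatives are given in the closing section. Plots used matplotlib 3.10.9.

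Members and lists were chosen with earlier results of these data known. Values per library are given for the 2 members of each class with the highest mean, the 2 with the smallest p, those with an unadjusted p under 0.05 and those passing the Y-linked term. Of each pathway list, the 2 genes with the smallest p and those passing are named. Ctss, Lgmn, Ctsc, Gga3, Sumf1, Sumf2, Tfeb, Tfe3 and the marker genes named were chosen after their values were seen. 1 gene that the rule takes is not reported here. Protein sequences were not used here.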

Additional observations from a re-analysis of the deposited data

Results flagged for a closer look

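Among the 4 control libraries, the Arsa value of control 1 stood far from the rest: it was at 19.8 FPKM, and the other 3 were between 2.61 and 5.47 FPKM. The gap to the nearest library was 0.834 of the whole range. Of 32 members examined in this way, 1 was singled out, and chance alone singles out about 1 in 20 groups. MDL-800 2, which also held Y-linked reads, was at 20.8 FPKM.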

How the results depend on the processing

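No member passed between MDL-800 and control under any of the 19 alternatives. Over all genes tested, 0 to 1 passed when 1 library was left out (1 without MDL-800 1 and 1 without control 1) and 0 under the other alternatives, and 192 to 1083 genes and 1 to 4 members had an unadjusted p under 0.05. The member count was 1 without MDL-800 1, without MDL-800 2, with the replicate block (Siae in all 3) and at a mean of at least 5 FPKM (Ctsf), and 4 with array weights or with a term for Y-linked reads. Siae had an unadjusted p under 0.05 in 18 of the 19, with log2 fold changes of 0.59 to 0.81, and was not tested at a mean of at least 5 FPKM. The median log2 fold change of all genes tested lay between -0.0069 and 0.06 in all of them. Several differences turned in sign, among them those of Ctss and Arsa when 1 library was left out, and the cause was not tested. Median scaling gave -0.017 for Ctsz. With summed reads as the denominator, Ctsb was at 0.036 and Fuca1 at 0.012, and with limma voom at 0.037 and 0.011. Array weights gave 0.13 for Ctsb, 0.12 for Ctss, 0.15 for Lgmn, 0.027 for Glb1 and 0.0065 for Man2b1. A term for Y-linked reads gave 0.051 for Ctsb, and the libraries without such reads gave 0.055 for Ctsb and 0.020 for Lgmn. Leaving out 1 library at a time gave ranges of -0.24 to 0.090 for Ctsa, -0.17 to 0.22 for Ctsb, -0.32 to 0.022 for Ctsd, -0.97 to 0.43 for Ctss, -0.10 to 0.15 for Ctsz, -0.43 to 0.28 for Lgmn and -0.055 to 0.13 for Tpp1. The ranges were -0.013 to 0.22 for Gla, -0.20 to 0.081 for Glb1, -0.18 to 0.11 for Man2b1, -0.10 to 0.016 for Manba, -0.16 to 0.039 for Fuca1 and -0.0042 to 0.20 for Neu1. They were -0.28 to 0.84 for Arsa, -0.13 to 0.29 for Asah1, -0.021 to 0.14 for Smpd1 and -0.12 to 0.29 for Psap. Without a change of sign, Ctsc ran from -0.68 to -0.021.

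The replicate numbers of the labels did not show as pairs in the values. Deviations from the group means correlated at -0.59, -0.55 and 0.06 for number 1, 2 and 3, while MDL-800 2 and control 1 correlated at 0.77. Those 2 libraries, set apart by the first principal component, carry different numbers. The correlations therefore cannot settle whether the numbers mark pairs. With the replicate number as a block, which leaves control 4 without a partner, 0 genes passed, 192 and 1 member had an unadjusted p under 0.05, Siae was at 0.59, and Ctsa, Ctsb and Smpd1 turned in sign (0.026, 0.040 and -0.018).

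For the term for Y-linked reads, 276 genes passed, 159 with no filter on low values and 83 to 418 when 1 library was left out. Of the members, 0 to 3 passed when 1 library was left out: 0 without MDL-800 1 or MDL-800 3, 3 without control 3 and 2 without control 4. Leaving out control 1 or MDL-800 2 leaves 1 library with Y-linked reads, and those fits were not run. Reads of a member in 1 library ran from 102 (Gla) to 24801 (Ctsb), and depth limits the precision of the low genes most.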
